A study of Rattus norvegicus with 31 samples.

Results

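Neuropeptide precursors are large proteins that neurons cut into short signalling peptides inside dense-core vesicles, from which the peptides are released alongside the fast transmitter. Granins are acidic proteins of the same vesicles that help to form them and are themselves cut into peptides. Spinal motor neurons use acetylcholine as their fast transmitter and are known to carry calcitonin gene-related peptide (CGRP) and urotensin II, whereas enkephalins in the cord are known mainly from interneurons. The genes described here are a set of 10, Vgf, Scg2, Penk, Uts2, Calca, Calcb, Gal, Npy, Tac1 and Adcyap1. They are represented by every probe set that names one of them alone in the platform annotation, which gave 11 probe sets for 9 genes (of 9769 genes named alone) among 12913 tested, and Adcyap1 was not analysed here. Calca has 3 probe sets and the other genes have 1 each.

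The arrays held amplified RNA from motor neurons of the tail in adult male Wistar rats, cut by laser from the sacral cord below a complete transection at the second sacral segment. The neurons had been labelled by Fluoro-Gold, a tracer carried back along their axons, and each array stands for 1 rat, so that replicates are separate animals. The groups were uninjured animals with an intact cord (Control, n = 4) and animals taken 2, 7, 21 and 60 days after transection (Spi-2, n = 6; Spi-7, n = 5; Spi-21, n = 8; Spi-60, n = 8), 31 in all. None carried an engineered allele, and the groups differed in the transection and in the days since. The arrays of Control, of Spi-2 and of Spi-7 were made for 1 study and those of the later days for an earlier one, so that at days 21 and 60 injury and study cannot be told apart, and a control operated without transection was not analysed here.

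Values are RMA summaries on the log2 scale, where a step of 1 is a doubling of the array signal, and array medians lay between 5.95 and 6.10. The 8 measured motor neuron markers averaged between 10.07 and 10.62 on every array, which rested on the neurofilaments Nefh, Nefm and Nefl and on Prph (11.66 to 14.37) and on the choline transporter Slc5a7 (9.18 to 11.76). Slc18a3, the vesicular acetylcholine transporter, lay between 6.39 and 8.56, and the transcription factors Isl1 (5.45 to 6.01) and Isl2 (5.32 to 6.13) lay mostly below the array medians, so that these 2 did not mark the cells here, and Chat was not analysed here. Some markers of other cells moved with injury. Gfap, a filament of astrocytes, was called higher at days 2, 21 and 60, by 2.45 at day 2. It was the only 1 of 6 astrocyte markers called higher, and 1 was called lower at day 21. The median change of these 6 was -0.13, -0.08, -0.03 and 0.07 at days 2, 7, 21 and 60. Of 6 oligodendrocyte markers 1 was called lower at days 2, 7 and 60 and 3 at day 21, where their median change was -0.73. Of all probe sets, 4.98%, 1.67%, 10.7% and 9.89% were called lower at days 2, 7, 21 and 60. The shares called higher were 3.9%, 0.914%, 5.94% and 7.2%. Of 8 microglia and macrophage markers, 3, 1, 2 and 3 were called higher at these days and none lower. The mean of 8 microglia and macrophage markers ranged from 5.44 to 5.72 in Control, 6.16 to 6.95 in Spi-2, 5.78 to 6.68 in Spi-7, 5.40 to 6.92 in Spi-21 animals and 5.79 to 7.01 in Spi-60 animals. Their part in the results below was not tested, except where a value is given. In pools of cut cells, fewer cells of a type and less RNA per cell cannot be told apart.

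The promoters of these genes are shown first because several are known to respond to the cyclic AMP pathway through the cyclic AMP response element (CRE), whose full form reads TGACGTCA and whose shorter core reads TGACG. RefSeq (GRCr8) gave a promoter for 8 of the 10 genes, and Calcb and Penk are named only. Both strands were searched over the 250 bases before the start site. The full element was found in 2 of the 8, the granins Vgf and Scg2, whereas 1.59% of 33469 rat promoters hold it. The core, which is contained in the full element, was found in 5 of 8 (Vgf, Scg2, Calca, Gal and Tac1) and in 18.2% of all promoters. In the 30-base windows below, read 5′ to 3′ along the strand of the gene, capitals mark the match, which in Tac1 lies on the opposite strand and so reads CGTCA.
Vgf, chr12:25277092-25277121, minus strand: tgaatgaacatTGACGTCAatggggcgggg
Scg2, chr9:88256971-88257000, minus strand: ggctgagccggTGACGTCAgcgaggaatgc
Calca, chr1:178317624-178317653, minus strand: gaagcaccgaggTGACGcaatctgtctggg
Gal, chr1:210084618-210084647, minus strand: gcgctgagcgggTGACGcggcagctcccac
Tac1, chr4:36645365-36645394, plus strand: tccctaaaattgCGTCAtttcgaacccaat
The match began at position -90 from the start site in Vgf and at -123 in Scg2. The AP-1 motif TGANTCA was found in 0 of the 8 windows (6.34% of all promoters), the Sp1 motif GGGCGG in 2, Vgf and Npy (30.5%), and TATAAA in 4 (12.9%). A match describes letters in a window and does not show that a protein binds there. Of the 2 genes with the full element, Vgf rose and Scg2 fell, as the values below show. The part of the element in these changes was not tested.

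Across the 11 probe sets, Vgf and Uts2 rose after transection at all 4 days, Penk fell at days 2, 21 and 60, and Scg2 fell at days 2 and 21. Each contrast with Control was taken from limma, fitted across all probe sets and called at a Benjamini-Hochberg adjusted p under 0.05. At day 2 the test called 2 of the 11 higher, against 3.9% of all 12913 probe sets, and 2 lower, against 4.98%. At day 7 it called 2 higher (background 0.914%) and none lower (1.67%), although Penk came close and 5 in all were called with weights for array quality. At day 21 it called 2 higher (5.94%) and 2 lower (10.7%), and at day 60 2 higher (7.2%) and 1 lower (9.89%). The median change of the 11 was 0.21, 0.09, -0.02 and -0.05 at days 2, 7, 21 and 60, and that of all probe sets lay between -0.0030 and 0.013.

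Over the 5 groups together, limma's F-test at a false discovery rate of 0.02 called Vgf, Uts2 and Penk, 3 of the 11, against 16.2% of all probe sets. Restricted to days 0, 2 and 7, the arrays of 1 study, it called none of the 11 (3.01% of all probe sets), and the smallest adjusted p were 0.0219 for Uts2, 0.0472 for Vgf and 0.0528 for Penk. Between day 60 and day 21, fitted on the 16 arrays of the earlier study, none of the 11 was called higher (0% of all probe sets) or lower (0.00774%, which is 1 probe set). No member had an unadjusted p under 0.05 in that contrast, where the smallest, 0.0772, belonged to Scg2. The plot of changes by day shows the 2 risers, the 2 genes that fell and the probe sets around 0.

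**Figure D1:**
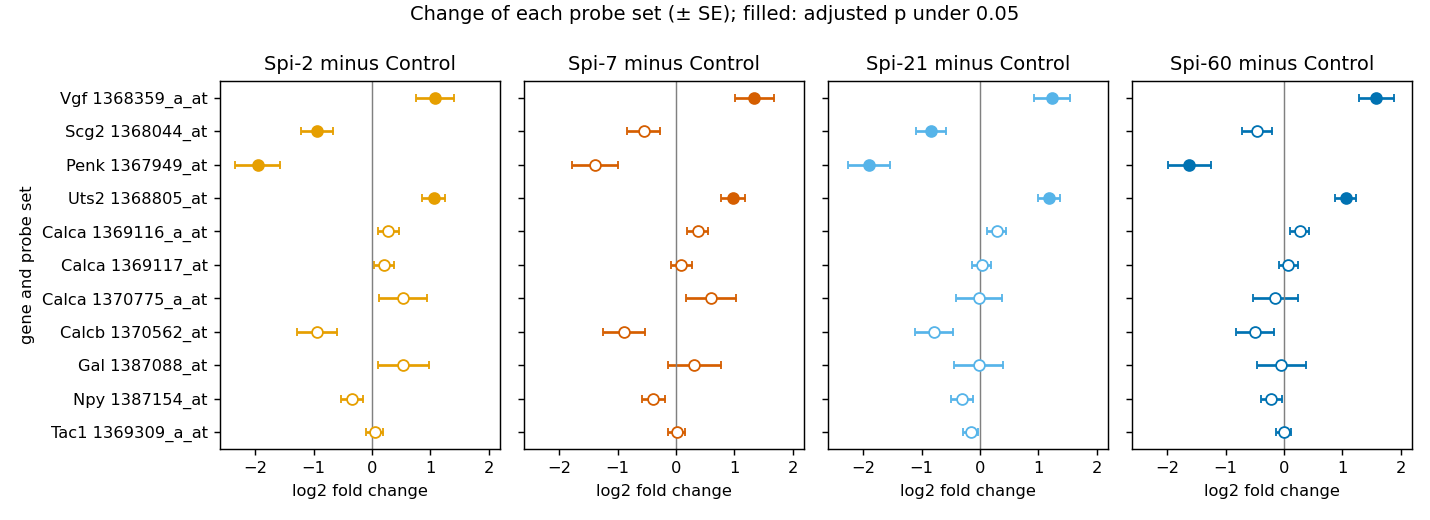
Change of each of the 11 probe sets against Control (log2 fold change ± SE from the fit; 1 panel per day), with filled symbols for an adjusted p under 0.05. Vgf and Uts2 are filled right of 0 in all 4 panels, with changes between 0.98 and 1.58, whereas Penk is filled left of 0 in the panels of days 2, 21 and 60.

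Vgf, a granin-like precursor first known as a gene induced by nerve growth factor, read 9.74, 10.20, 10.43 and 10.31 in the 4 Control animals. Spi-2 animals lay between 9.74 and 11.84 with a median of 11.53, and the 5 Spi-7 animals read 11.72, 11.87, 11.76, 11.27 and 10.93. Spi-21 animals lay between 10.36 and 12.09 (median 11.48) and Spi-60 animals between 11.34 and 12.11 (median 11.72). All Spi-7 and all Spi-60 animals were above every Control animal, while Spi-2 overlapped Control through replicate 2 at 9.74 and Spi-21 through replicate 8 at 10.36.

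The mean of Vgf was 10.17 ± 0.30 in Control, 11.25 ± 0.77 in Spi-2, 11.51 ± 0.40 in Spi-7, 11.40 ± 0.67 in Spi-21 and 11.75 ± 0.23 in Spi-60 (SD). Among the injured groups, neighbours in the order of these means differed by less than the larger of their SDs, and Control stood below all of them. Relative to Control, Vgf was 2.11-fold higher at day 2 (log2 change 1.08 ± 0.32, SE, adjusted p = 0.0303 by limma) and 2.53-fold higher at day 7 (1.34 ± 0.33, adjusted p = 0.0227). It was 2.35-fold higher at day 21 (1.23 ± 0.30, adjusted p = 0.00666) and 3.00-fold higher at day 60 (1.58 ± 0.30, adjusted p = 0.000740). Day 60 against day 21 differed by 0.35 ± 0.22 (adjusted p = 0.612), which did not pass.

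Vgf was also set beside a measure of RNA length. Both rose together within Spi-21 and Spi-7, but not within Control, Spi-2 or Spi-60. The difference between the 3′ and 5′ control probe sets of Gapdh, which grows as amplified fragments get shorter, was 1.80 to 2.50 in Control, 2.30 to 3.38 in Spi-2, 2.38 to 3.33 in Spi-7 and 2.99 to 3.97 in Spi-60. Within Spi-21 it split the animals. Replicates 1 to 4 had a difference of 2.76 to 3.54 and Vgf values of 11.82 to 12.09, and replicates 5 to 8 had a difference of 1.13 to 1.66 and Vgf values of 10.36 to 11.13. In Control and in Spi-2 the animal with the largest difference, 2.50 and 3.38, had the lowest Vgf of its group, 9.74 in both. In Spi-60 the animal with the smallest difference, 2.99, had the highest Vgf, 12.11. With this difference as a covariate the change of Vgf was 0.80 at day 2 (adjusted p = 0.152), 1.00 at day 7 (0.159) and 1.08 at day 60 (0.116), none of them called, whereas at day 21 it was 1.14 (0.00951) and was called.

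**Figure D2:**
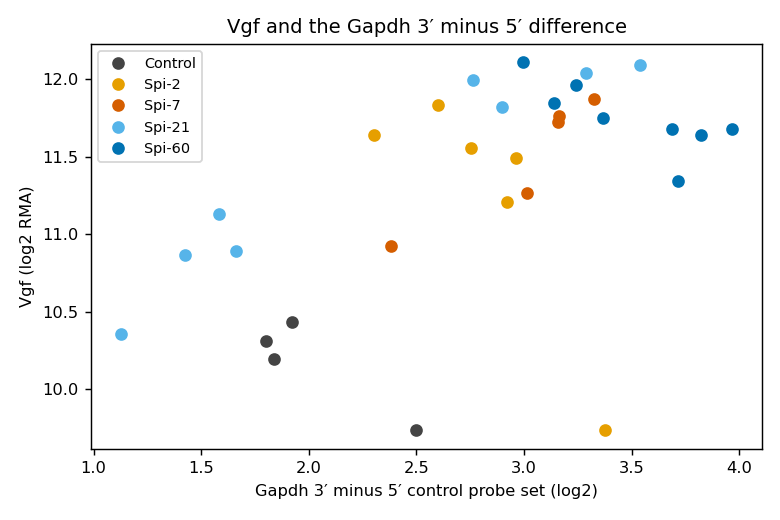
Vgf (log2 RMA) against the difference of the Gapdh 3′ and 5′ control probe sets (log2) of the same array, 1 point per animal, coloured by group. The Spi-21 points form 2 sets, 4 animals with a Gapdh difference of 1.13 to 1.66 and Vgf at or below 11.13, and 4 with a difference of at least 2.76 and Vgf of at least 11.82, while Spi-2 replicate 2 sits alone at the lower right.

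The call for Vgf at day 2 was the least firm of its calls. It was lost when the fit held only Control and Spi-2 (adjusted p = 0.0729), when Control replicate 1, 2 or 4 was left out, or when Spi-2 replicate 1, 3, 4 or 6 was. The day 7 call was lost without Control replicate 1 or 2 or Spi-7 replicate 1, 2 or 3, and the day 21 call with Spi-21 replicates 4 to 8 alone (0.88, adjusted p = 0.0859). The changes stayed above 0 in each of these settings. The probe sets whose values were most like those of Vgf over the 31 arrays were Ngfr, the p75 receptor of neurotrophins (r = 0.89 over all arrays, 0.88 within groups), Nckap5l (0.83 and 0.71) and Wdr1 (0.82 and 0.71), given as a description with no test, since the arrays share the injury groups.

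Uts2 encodes the precursor of urotensin II, a cyclic peptide that acts on blood vessels and is known from motor neurons of the cord. It read 10.50, 11.22, 11.64 and 11.65 in Control. Spi-2 animals lay between 11.77 and 12.87 (median 12.19), Spi-7 animals between 12.12 and 12.39 (median 12.14), Spi-21 animals between 12.12 and 12.84 (median 12.48) and Spi-60 animals between 12.16 and 12.59 (median 12.26). Every one of the 27 injured animals was above every Control animal. A probe set with all injured animals above every Control animal was found for 4.06%, 3.78%, 2.35% and 5.33% of all probe sets at days 2, 7, 21 and 60, and among the 11 this held for Uts2 at all 4 days and for Vgf at days 7 and 60.

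The means of Uts2 were 11.25 ± 0.54 in Control, 12.31 ± 0.44 in Spi-2, 12.23 ± 0.13 in Spi-7, 12.43 ± 0.27 in Spi-21 and 12.31 ± 0.14 in Spi-60 (SD). Among the injured groups, neighbours in the order of these means differed by less than the larger of their SDs, and all stood about 1 log2 unit above Control. The rise was 2.08-fold at day 2 (log2 change 1.06 ± 0.19, SE, adjusted p = 0.000756 by limma) and 1.97-fold at day 7 (0.98 ± 0.20, 0.00632). The later rises were 2.27-fold at day 21 (1.18 ± 0.18, 0.000196) and 2.08-fold at day 60 (1.06 ± 0.18, 0.000335). Of all settings tried, 1 ended a call, the day 7 fit without Control replicate 1, the lowest animal (0.73, adjusted p = 0.0519). Day 60 differed from day 21 by -0.12 ± 0.11 (adjusted p = 0.735).

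The probe sets most like Uts2 over the 31 arrays were Sh3bgrl3 (r = 0.80, 0.58 within groups), Prph (0.78 and 0.61) and Lgals1 (0.77 and 0.66), again as a description. Prph encodes peripherin, an intermediate filament of motor neurons, and is among the motor neuron markers used here. Prph itself was called higher at all 4 days, by 0.59, 0.78, 0.78 and 0.79, whereas Slc5a7, the choline transporter of cholinergic terminals, was called lower at days 2, 21 and 60, by 1.06 to 1.18 on the log2 scale.

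**Figure D3:**
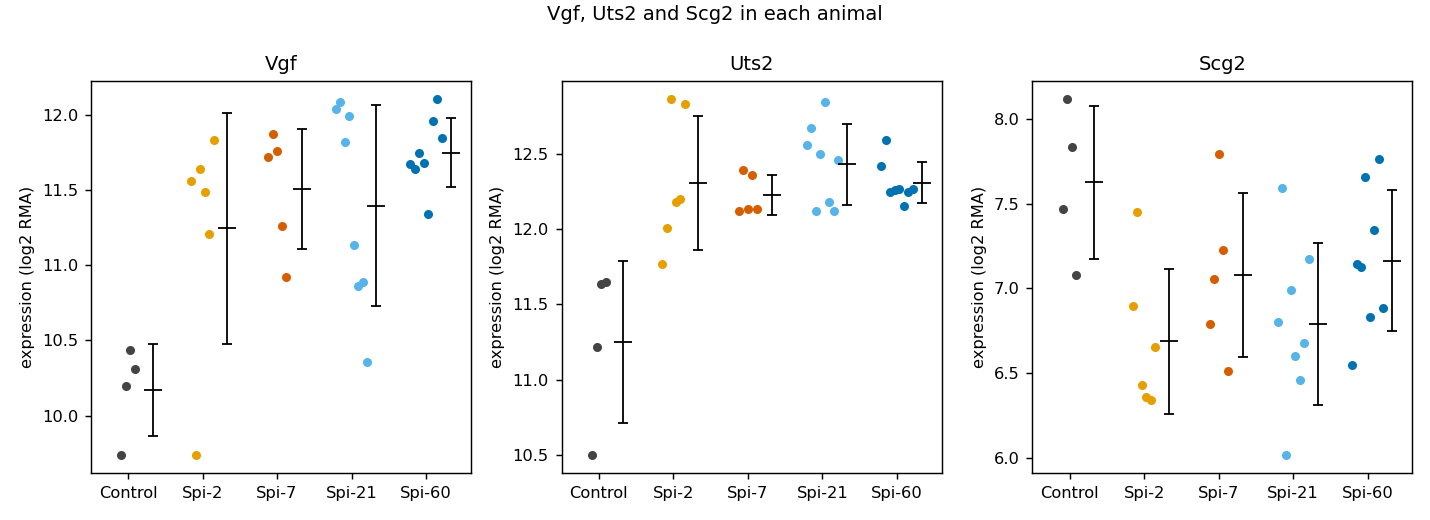
Expression of Vgf, Uts2 and Scg2 (log2 RMA) in each animal, by group in order of time after transection, with 1 point per animal and a bar at the group mean ± SD. Uts2 lies above 11.7 in all 27 injured animals and at or below 11.65 in the 4 Control animals, whereas the groups overlap for Scg2.

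Penk, the precursor of the enkephalins, read 9.14, 9.12, 8.89 and 6.67 in Control. Spi-2 animals lay between 6.31 and 6.69 (median 6.50) and the Spi-7 animals read 6.52, 6.51, 6.73, 8.94 and 6.65. Spi-21 animals lay between 5.90 and 6.96 (median 6.62) and Spi-60 animals between 6.31 and 7.41 (median 6.84). Penk therefore took 2 levels rather than a gradient. A total of 4 animals, 3 of Control and 1 of Spi-7, read between 8.89 and 9.14, and the other 27 read 7.41 or less, among them Control replicate 4, so that Control overlapped each injured group.

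Relative to Control, Penk was 3.89-fold lower at day 2 (log2 change -1.96 ± 0.38, SE, adjusted p = 0.00135 by limma), 3.72-fold lower at day 21 (-1.90 ± 0.36, 0.00101) and 3.08-fold lower at day 60 (-1.62 ± 0.36, 0.00268). At day 7 the change was -1.38 ± 0.40 with an adjusted p of 0.0530 and did not pass. It was -1.85 (adjusted p = 0.00258) without Spi-7 replicate 4, the high animal, and -1.98 (0.00154) without Control replicate 4, the low one. The day 7 call was also made with array weights, with dim probe sets left out, and with the Gapdh covariate (adjusted p = 0.000473, 0.0493 and 0.0466). The calls at days 2, 21 and 60 held in all settings tried.

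Markers of several other cell types were low in Control replicate 4 and high in Spi-7 replicate 4, as Penk was. Gad1, which makes the inhibitory transmitter GABA, read 9.04 in Spi-7 replicate 4, and 9.96, 9.72, 9.71 and 7.24 in the Control animals in the same order as Penk above. Slc17a6, the vesicular glutamate transporter of excitatory neurons, read 8.40 in Spi-7 replicate 4, and 9.46, 9.35, 8.93 and 7.31 in Control. Control replicate 4, the 1 uninjured animal with low Penk, was thus also the lowest Control animal for both markers. The mean of 6 oligodendrocyte markers went the same way, at 8.89 in Spi-7 replicate 4, the highest of its group, and 9.15, 9.08, 9.15 and 8.32 in Control, and so did that of 6 astrocyte markers, at 7.94 in Spi-7 replicate 4 and 7.82, 7.61, 7.79 and 6.99 in Control. Not every animal with high glial means had high Penk. Spi-60 replicate 8, with Penk at 6.31, had means of 9.01 for oligodendrocyte and 8.19 for astrocyte markers. Spi-7 replicate 5, with Penk at 6.65, had an astrocyte mean of 7.93.

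Over the whole interneuron list, 7 of 9 genes were measured, and their mean ranged from 5.98 to 7.18 in Control, 5.61 to 6.34 in Spi-2, 5.56 to 6.46 in Spi-7, 5.37 to 6.04 in Spi-21 animals and 5.66 to 6.13 in Spi-60 animals. Of these genes, Gad2, Slc6a5, Slc17a7 and Tlx3 lay at or below the array medians in every group. The mean therefore rested mostly on Gad1, Slc17a6 and Slc32a1. The test called 2 of the 7 lower at day 2, Slc17a6 and Slc32a1, the inhibitory vesicular transporter, against 4.98% of all probe sets. It called none at day 7 (1.67%) and 3 at days 21 (10.7%) and 60 (9.89%), the same 2 and Gad1. Spi-2 replicate 5 and Spi-7 replicate 1, with Penk at 6.31 and 6.52, read 9.68 and 9.42 for Gad1, 6.58 and 7.79 for Slc17a6 and 6.36 and 5.92 for Slc32a1. The part of RNA from interneurons or glia in the fall of Penk was not tested. The probe sets most like Penk over the 31 arrays were Zcchc12 (r = 0.81, 0.67 within groups), Rasgrp2 (0.80 and 0.69) and Vsnl1 (0.80 and 0.61), as a description. How far these r rest on the 4 animals with high Penk was not calculated.

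**Figure D4:**
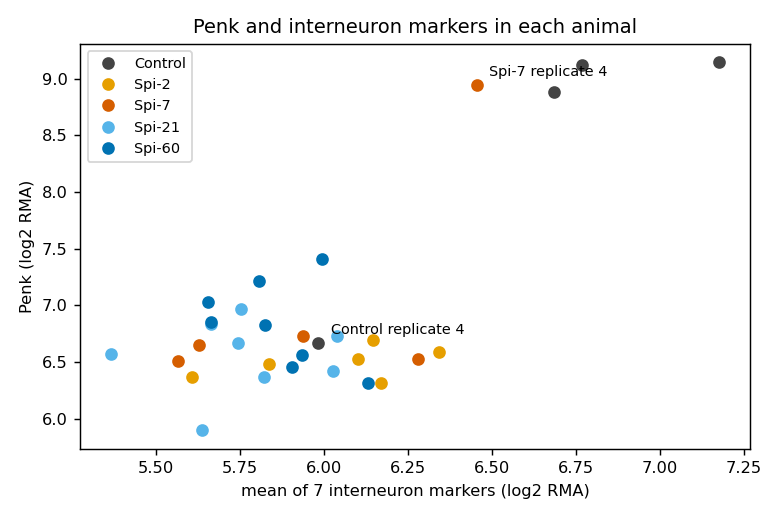
Penk (log2 RMA) against the mean of 7 interneuron markers (log2 RMA) in each of the 31 animals, coloured by group. The 4 animals with Penk between 8.89 and 9.14, 3 of Control and Spi-7 replicate 4, also have the highest marker means, and Control replicate 4 lies among the injured animals.

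Scg2, the granin that is cut to secretoneurin, changed in the direction opposite to Vgf. It read 7.47, 8.12, 7.84 and 7.08 in Control, and Spi-2 animals lay between 6.34 and 7.45 (median 6.54). Spi-7 animals lay between 6.51 and 7.80 (median 7.05), Spi-21 animals between 6.01 and 7.59 (median 6.74) and Spi-60 animals between 6.54 and 7.76 (median 7.14). All injured groups overlapped Control, and their medians were all below the Control median of 7.65. Control replicate 4, the uninjured animal with low Penk and low glial means, was also the lowest Control animal for Scg2. Spi-7 replicate 4, with high Penk, was not the highest of its group for Scg2. The part of RNA from other cells in the values of Scg2 was not tested.

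Scg2 was 1.92-fold lower at day 2 (log2 change -0.94 ± 0.27, SE, adjusted p = 0.0270 by limma) and 1.79-fold lower at day 21 (-0.84 ± 0.26, 0.0253). The changes at day 7 (-0.55 ± 0.28, adjusted p = 0.352) and day 60 (-0.46 ± 0.26, 0.228) did not pass, and no test compared them with days 2 and 21 except day 60 against day 21 (0.37 ± 0.20, adjusted p = 0.529). Leaving out 1 animal was enough to lose either call, Control replicate 2 or 3 for both, Spi-2 replicate 3, 4 or 5 for day 2 and Spi-21 replicate 3 for day 21. The day 21 call was also lost with Spi-21 replicates 4 to 8 only (-0.85, adjusted p = 0.0545) and with a further quantile normalization (-0.71, 0.0571), and the day 2 call was lost in the fit blocked by replicate (-0.85, 0.0536). The F-test over the 5 groups gave an adjusted p of 0.0470, above the 0.02 used.

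The CGRP genes Calca and Calcb are close paralogs, and signal from 1 gene on the probes of the other cannot be told apart here. Calca gives either calcitonin or CGRP by splicing, and which exons its 3 probe sets cover is not known here. The bright Calca probe set, 1370775_a_at, read 10.81, 12.14, 12.40 and 12.85 in Control, between 11.23 and 13.23 in Spi-2 (median 12.72) and between 11.71 and 13.30 in Spi-7 (median 12.95). It lay between 10.66 and 12.72 in Spi-21 (median 12.13) and between 11.19 and 12.54 in Spi-60 (median 12.06). Calcb, at 1370562_at, read 9.36, 10.10, 10.68 and 11.01 in Control. It lay between 8.44 and 10.38 in Spi-2 (median 9.30), 8.77 and 10.04 in Spi-7 (median 9.61), 8.82 and 9.88 in Spi-21 (median 9.63) and 9.23 and 10.42 in Spi-60 (median 9.81). For both genes every injured group overlapped Control.

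Neither gene was called at any day. The change of Calca 1370775_a_at was 0.54 ± 0.41, 0.60 ± 0.43, -0.01 ± 0.39 and -0.15 ± 0.39 at days 2, 7, 21 and 60 (SE, adjusted p between 0.475 and 0.985 by limma). Calcb was lower by estimate at all 4 days, at -0.94 ± 0.34 (adjusted p = 0.0837), -0.89 ± 0.36 (0.198), -0.79 ± 0.33 (0.0869) and -0.50 ± 0.33 (0.305). Without Control replicate 1 Calcb was called at day 2 (-1.25, adjusted p = 0.0341) and day 21 (-1.10, 0.0338), and at day 2 also without Spi-2 replicate 3 or 6. That Control animal was the lowest of its group for Calca, Calcb, Vgf and Uts2 alike.

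The difference of the 2 probe sets within an array, Calca minus Calcb, cancels what raises or lowers both in an animal. It was 1.45, 2.04, 1.73 and 1.84 in Control, between 2.79 and 3.96 in Spi-2 (median 3.19), and 3.39, 3.56, 2.91, 3.52 and 2.88 in Spi-7. All 11 animals of these 2 injured groups were above every Control animal, and these 3 groups come from the same study. Spi-21 lay between 0.93 and 3.42 (median 2.73) and Spi-60 between 0.78 and 2.87 (median 2.33), so that both overlapped Control.

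The mean of Calca minus Calcb was 3.24 ± 0.44 in Spi-2 and 1.76 ± 0.25 in Control (SD), a difference of 1.48. In Spi-7 it was 3.25 ± 0.33, 1.49 above Control. In Spi-21 it was 0.78 above Control and in Spi-60 0.35 above. The pair was picked among 55 possible pairs of these probe sets after the values were seen, so that the values are a description and no p is given. The separation was not particular to this pair. For Uts2 minus Calcb and for Vgf minus Calcb, too, every Spi-2 and Spi-7 animal was above every Control animal. How many of the other pairs also separate Control from Spi-2 and Spi-7 was not counted.

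The Gapdh measure of RNA length was also larger in Spi-2 (2.30 to 3.38) and Spi-7 (2.38 to 3.33) than in Control (1.80 to 2.50), and its part in the CGRP difference was not tested. In Spi-21, replicates 1 to 4, with the larger Gapdh differences, read 2.67, 2.27, 2.31 and 2.80 for Calca minus Calcb and replicates 5 to 8 read 3.03, 2.93, 3.42 and 0.93. With any 1 animal left out or a further quantile normalization, the difference from Control lay between 1.33 and 1.57 at day 2 and between 1.38 and 1.58 at day 7.

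**Figure D5:**
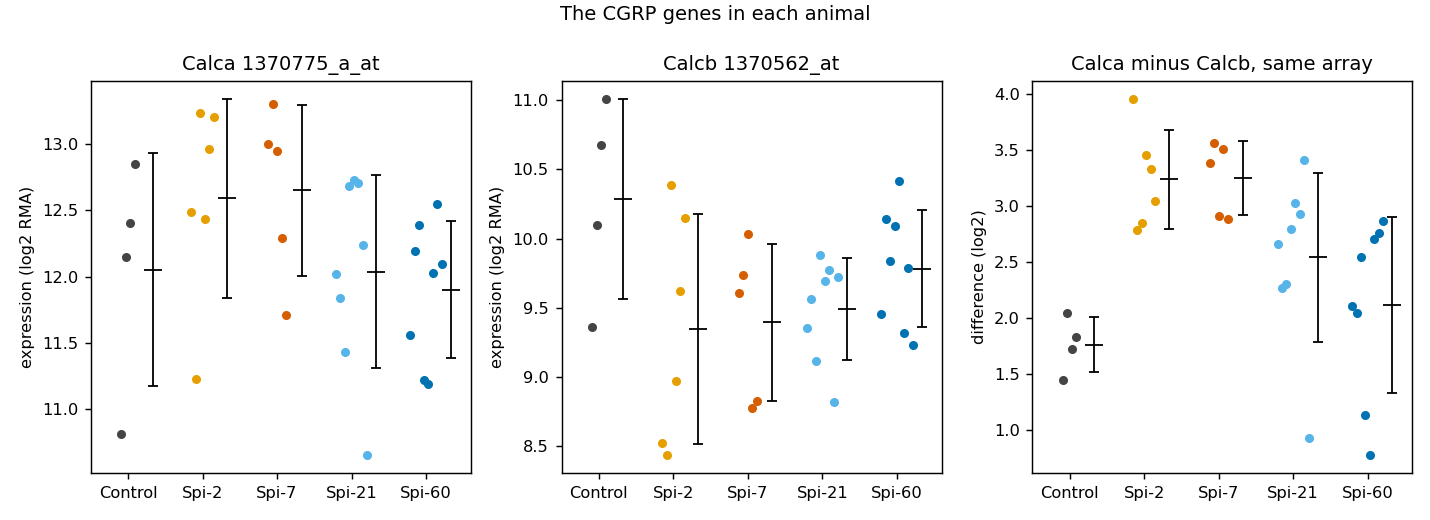
Calca 1370775_a_at (left), Calcb 1370562_at (middle) and their difference on the same array (right), all on the log2 scale, by group in order of time after transection, with 1 point per animal and a bar at the group mean ± SD. For each gene alone the groups overlap, whereas the difference is at least 2.79 in Spi-2 and Spi-7 animals and at most 2.04 in Control animals.

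The other Calca probe sets carried low values. At 1369116_a_at, injured animals lay between 5.81 and 6.68 and Control animals between 5.64 and 6.52, with changes of 0.27 to 0.37 over the 4 days and adjusted p of 0.231 to 0.351. With array weights it was called higher at day 2 (0.47, adjusted p = 0.0304) and day 7 (0.45, 0.0389). At 1369117_at all animals lay between 4.41 and 5.58, and no change exceeded 0.21. The 3 Calca probe sets therefore did not share a pattern that passed the test.

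Gal, the precursor of galanin, a peptide known to rise in many neurons after axon injury, was low in most animals and high in a few. Control read 5.56, 5.94, 6.10 and 5.22, and the medians were 5.91 in Spi-2, 5.59 in Spi-7, 5.51 in Spi-21 and 5.50 in Spi-60. The highest values were 8.28 in Spi-2 replicate 5, 7.68 in Spi-7 replicate 1 and 7.10 in Spi-21 replicate 3, and all other animals read 6.49 or less. The changes against Control, between -0.05 and 0.54 with SE of 0.42 to 0.46, did not pass at any day.

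Npy, the precursor of neuropeptide Y, lay between 5.44 and 6.50 in injured animals and read 6.07, 6.64, 6.91 and 5.56 in Control. Its change was -0.34 ± 0.19, -0.39 ± 0.20, -0.31 ± 0.18 and -0.22 ± 0.18 at days 2, 7, 21 and 60 (SE), none of them called (adjusted p of 0.251 to 0.443 by limma). It was called lower with array weights at days 2 and 7, and without Control replicate 4 at day 2 (-0.59, adjusted p = 0.0488) and day 21 (-0.55, 0.0351). Tac1, the precursor of substance P and neurokinin A, lay between 4.50 and 5.58 in injured animals and between 5.11 and 5.30 in Control, with changes of -0.16 to 0.04 and none called.

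Genes that cut and pack these precursors were called in both directions. Of 24 listed genes of prohormone processing and dense-core vesicles 19 were measured, and none rose and 4 fell at day 2 (4.98% of all probe sets fell), none rose and 1 fell at day 7 (1.67%). At day 21 2 rose and 5 fell (5.94% and 10.7% of all probe sets), and at day 60 2 rose and 4 fell (7.2% and 9.89%), so that the 2 that rose stand beside a background of like size. The list's median change was -0.02, -0.08, 0.14 and 0.09 at the 4 days.

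Chgb, the granin chromogranin B, was lower at day 2 (-0.80 ± 0.24, SE, adjusted p = 0.0314 by limma), day 21 (-0.82 ± 0.23, 0.0134) and day 60 (-1.28 ± 0.23, 0.000366), as Scg2 was at the first 2 of these days. Scg5, which encodes 7B2, the chaperone of a prohormone convertase, was lower by 0.55 at day 2, and its change was -0.63 at day 60 (adjusted p = 0.00675). Qpct, which forms the blocked amino end of some peptides, changed by -0.91 at day 2, -1.14 at day 21 and -1.22 at day 60, and Cadps2, which primes dense-core vesicles for release, fell at all 4 days (-0.93, -0.69, -0.70 and -0.91). Pam, which amidates peptides such as CGRP, fell at day 21 (-0.58 ± 0.14, adjusted p = 0.00453).

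The 2 genes of this list that rose did so at days 21 and 60, and Pcsk1n is named because it is 1 of these. Pcsk1n, the granin-like precursor proSAAS, rose by 1.08 ± 0.31 at day 21 (adjusted p = 0.0175 by limma) and 1.32 ± 0.31 at day 60 (0.00409). Ptprn, a membrane protein of dense-core vesicles, rose by 0.74 ± 0.17 at day 21 (0.00432) and 1.04 ± 0.17 at day 60 (0.000167). Granins and granin-like genes therefore held both directions, with Vgf and Pcsk1n higher and Scg2 and Chgb lower.

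Of 23 receptors for the peptides of these genes, 19 were measured and none was called at days 2 and 7. Tacr1, the substance P receptor, rose by 0.53 at day 21 (adjusted p = 0.0459 by limma) and by 0.70 at day 60 (0.00905), and Npy5r, a neuropeptide Y receptor, changed by -0.53 at day 21 (0.0419), so that 1 of the 19 rose at each of these days and 1 fell at day 21, below the shares of all probe sets given above. Of 49 other neuropeptide precursors, 36 were measured, and none was called at days 2 and 7. Npvf (0.38) and Ppy (0.32) rose at day 21, and Ucn2 (0.33), Nppb (0.35) and Cck (0.57) at day 60, so that 2 and 3 of the 36 rose, near the 5.94% and 7.2% of all probe sets at these days. Of these Cck, the precursor of cholecystokinin, averaged 9.02 in Spi-60 and 8.46 in Control, and the others averaged 6.04 or less in both of their groups. The lists' median changes lay between -0.03 and 0.12 at all days.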

How the data were processed

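Gene expression was measured on Affymetrix rat expression arrays, 1 per rat, after 2 rounds of linear amplification. The authors kept the probe sets that Ensembl annotates, corrected the background, quantile normalized and deposited RMA summaries on the log2 scale, which span 0 to 14.37; the submitters' notes name RMA with no version. Everything else was computed from these values. The 6 control probe sets were left out. The limma package (3.58.1, R 4.3.3) fitted a mean per group to the 31 arrays, day 60 against day 21 to its 16 arrays and the F-test over days 0, 2 and 7 to its 15. P-values were two-sided, adjusted by Benjamini-Hochberg over all 12913 probe sets. The members and gene lists were chosen with earlier results of these data known. All member probe sets are named, with the 3 most alike genes for those the F-test called and at most 4 called genes per list and contrast, the 4 with the smallest p; Pcsk1n, Vip and the marker genes were named after their values were seen. A list takes 1 probe set per gene, the brightest. The scripts were tested on simulated data. Precision rests on 4 to 8 animals per group, and brightness sets no read depth. Alternatives were another quantile normalization, array weights, a filter at a mean of 5, the Gapdh covariate, the replicate block, fewer samples, and leaving out each animal. The Calca and Calcb difference was added after the data were seen. Protein sequences were not analysed here.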

Additional observations from a re-analysis of the deposited data

Results flagged for a closer look

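Among 55 groups of values, 11 probe sets in 5 groups each, 4 held a sample far from the rest of its group by Dixon's gap criterion, and chance alone marks about 1 in 20 groups. Penk in Control replicate 4 read 6.67 where the other Control animals read 8.89 to 9.14. Penk in Spi-7 replicate 4 read 8.94 where the others read 6.51 to 6.73. Vgf in Spi-2 replicate 2 read 9.74 where the others read 11.21 to 11.84, and this array had the largest Gapdh 3′ minus 5′ difference of its group, 3.38. This animal was also the highest of Spi-2 for Slc5a7 (11.33), Slc32a1 (7.87) and Scg2 (7.45) and the lowest for Calca 1370775_a_at (11.23). Its Uts2 value, 12.01, was above every Control animal. What set this animal apart was not tested. Calca 1369116_a_at in Spi-7 replicate 4, the animal with high Penk, read 6.10 where the others read 6.38 to 6.43.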

How the results depend on the processing

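Of the 13 called changes of single probe sets, 204 of 233 alternative values kept the call and 29 lost it, with none reversed. The number of the 11 probe sets called changed in several settings, of which some are listed here. Further quantile normalization gave 1 in the F-test over days 0, 2 and 7. Array weights gave 5 at day 7, 5 in the F-test over 5 groups and 3 over days 0, 2 and 7. The Gapdh covariate gave 1 over days 0, 2 and 7, and Spi-21 replicates 4 to 8 only gave 2 at day 21. Single calls moved in further cases. The covariate lost Vgf at days 2, 7 and 60 and gained Penk at day 7. Quantile normalization lost Scg2 at day 21, and the fit of Control and Spi-2 alone lost Vgf at day 2. The filter on dim probe sets gained Penk at day 7, and array weights gained Npy and 1 Calca probe set at day 2. Leaving out 1 animal gave 2 to 4 called at day 2, 0 to 3 at day 7 (0 without Control replicate 1), 3 to 5 at day 21, 3 at day 60, 2 to 4 in the F-test over 5 groups, 0 to 2 over days 0, 2 and 7, and 0 for day 60 against day 21. With the replicate block 3 were called at day 2, where Scg2 was lost (-0.85, adjusted p = 0.0536), 2 at day 7, 4 at day 21 and 3 at day 60, and no other call changed. Same-numbered animals of different groups did not deviate together (mean r = -0.03 over 51 pairs, 0.01 over 327 others). These pairs cannot show whether the numbers carry an order within a group. In Spi-21, replicates 1 to 4 and replicates 5 to 8 differed in the Gapdh difference and in Vgf, as given above. The cause of the shifts in calls was not tested.

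The sign of small uncalled changes depended on the setting. Calca 1370775_a_at at day 21 was 0.15 with quantile normalization, 0.044 with array weights, 0.046 with the covariate and 0.15 with Spi-21 replicates 4 to 8 only, and 0.18 at day 60 with the covariate. Array weights gave -0.050 and 0.0015 for Tac1 at days 7 and 60. The covariate gave 0.063 for Tac1 at day 60, -0.10 for Gal at day 7, and, for day 60 against day 21, -0.029 for Penk, -0.30 for Vgf and 0.017 for Calca 1369116_a_at. The replicate block gave -0.046 and -0.0025 for Calca 1369117_at and 0.076 and 0.048 for Gal at days 21 and 60. With Spi-21 replicates 4 to 8 only, day 60 against day 21 was -0.094 for Calca 1369117_at and 0.30 for Gal. Leaving out 1 animal gave -0.43 to 0.25 (day 21) and -0.56 to 0.12 (day 60) for Calca 1370775_a_at, and -0.057 to 0.11 (day 21), 0.030 to 0.13 (day 60) and -0.041 to 0.13 (day 60 against day 21) for Calca 1369117_at. It gave -0.069 to 0.026 for Calca 1369116_a_at, 0.18 to 0.35 for Penk and 0.20 to 0.45 for Vgf (day 60 against day 21), -0.10 to 0.49 (day 7), -0.22 to 0.11 (day 21), -0.21 to 0.084 (day 60) and -0.14 to 0.17 (day 60 against day 21) for Gal, and -0.020 to 0.10, -0.078 to 0.090 and -0.042 to 0.022 (days 2, 7 and 60) for Tac1. Signals of this size lie within the spread between animals. The Calca minus Calcb shift at day 21 ranged from 0.66 to 1.01.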

Other observations

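Vip, the precursor of vasoactive intestinal peptide, is another precursor that was high in a few injured animals, and it was singled out after its values were seen. It read 5.31, 5.60, 5.31 and 5.51 in Control. Spi-2 animals lay between 5.13 and 10.15 (median 7.00), and the Spi-7 animals read 10.70, 6.57, 6.37, 8.37 and 5.91. Spi-21 animals lay between 4.87 and 7.22 (median 5.69) and Spi-60 animals between 5.20 and 6.94 (median 5.46). All 5 Spi-7 animals were above every Control animal, as for 3.78% of all probe sets at day 7, although the change (2.15 ± 0.78 on the log2 scale at day 7 and 1.75 ± 0.75 at day 2, SE) did not pass (adjusted p = 0.148 and 0.151 by limma).

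The animals highest for Vip were also the highest for Gal. Spi-2 replicate 5 read 10.15 for Vip and 8.28 for Gal, and Spi-7 replicate 1 read 10.70 for Vip and 7.68 for Gal. The same 2 animals had the highest Gad1 values of their groups, 9.68 and 9.42, while Penk read 6.31 and 6.52 in them. Spi-21 replicate 3, the third animal with high Gal at 7.10, read 5.50 for Vip, and Spi-2 replicate 6 read 8.34 for Vip with Gal at 5.89. The part of other cells in these values was not tested.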
